A study of Drosophila melanogaster with 3 samples.

Results

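The Dpr, DIP, Beat and Side genes encode 4 families of cell surface proteins with immunoglobulin domains that neurons of Drosophila melanogaster use to recognise their partners. They were taken by symbol from the protein-coding genes on the 6 chromosome arms of the Release 6 genome (dm6): every gene whose symbol is side or begins with DIP-, beat-, side- or dpr and a digit. This gave 54 of 13945 genes, with 21 Dpr, 11 DIP, 14 Beat and 8 Side members. The rule used symbols alone, but it was set with earlier results of these data known. The data are maps of chromatin bound by a Scute protein with GFP fused to its C terminus, made by chromatin immunoprecipitation (ChIP) with an antibody against GFP. All 3 biological replicates came from whole transgenic sc-GFP embryos of 0 to 14 h, with males and females pooled, and their chromatin was sonicated to between 200 and 800 bp. They form a single group, no untagged or input library was analysed here, and ChIP gives no expression level with which to check the tissue against its markers. Because whole embryos were used, weaker binding and binding in fewer cells cannot be told apart, and any difference between the tagged transgene product and native Scute was not tested.

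Scute is a proneural transcription factor of the basic helix-loop-helix class, which gives cells the capacity to become neural precursors and binds DNA motifs called E-boxes (CANNTG) together with Daughterless. Dpr proteins bind DIP proteins, and Beat proteins bind Side proteins, in selective pairs on the surfaces of neurons and their targets. DIP-alpha with Dpr6 and Dpr10, DIP-gamma with Dpr11, Beat-Ia with Side, and Beat-IIb with Side-IV are known pairs. Sidestep (side) is known for guiding motor axons, which carry Beat-Ia, to muscle.

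Each region in the authors' lists has a summit, its point of highest signal. A gene was given a region when the summit fell within its territory, the gene body with the 2 kb before its start. The authors' thresholded set, which passed their procedure for reproducibility between replicates, held 3612 regions, and 13 of these summits lay in the territories of 8 members. Ranks are by the deposited signal, with rank 1 the highest of the 30000 regions in each replicate list or in the list from pooled replicates. For a thresholded region, the rank in a replicate is that of the highest region assigned to the same thresholded summit within 250 bp. Regions below the threshold have no such summit, so the replicate ranks given for them do not rest on this assignment. The signal has the scale of its own list, so ranks rather than signals are set side by side between replicates. Read depth is unknown because the lists carry no read counts.

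The 6 member regions that ranked best on average lay in beat-Ib, DIP-alpha and side-IV and beside dpr14. Each line gives 201 bases of the dm6 plus strand around a summit, with the summit at position 101 and any E-box CANNTG in capitals, so that the DNA behind the highest-ranked members can be compared. The beat-Ib windows are chr2L:15911184-15911384 (a), chr2L:15913051-15913251 (b) and chr2L:15912069-15912269 (c). The DIP-alpha window is chrX:3546226-3546426, the dpr14 window is chrX:7908604-7908804, and the side-IV window is chr3R:13452889-13453089. E-boxes numbered 3 over these 6 windows. CATATG began 67 bases to the right of the summit in beat-Ib (b) and 77 bases to the left of it beside dpr14, and CAATTG began 63 bases to the left of it in side-IV.
beat-Ib (a): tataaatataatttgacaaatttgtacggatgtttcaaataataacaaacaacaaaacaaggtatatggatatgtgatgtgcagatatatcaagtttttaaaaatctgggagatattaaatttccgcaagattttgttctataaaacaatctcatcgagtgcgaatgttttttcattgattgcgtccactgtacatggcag
beat-Ib (b): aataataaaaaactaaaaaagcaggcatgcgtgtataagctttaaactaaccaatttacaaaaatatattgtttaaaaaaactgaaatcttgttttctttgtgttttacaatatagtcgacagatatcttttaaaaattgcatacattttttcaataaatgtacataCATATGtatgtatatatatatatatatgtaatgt
beat-Ib (c): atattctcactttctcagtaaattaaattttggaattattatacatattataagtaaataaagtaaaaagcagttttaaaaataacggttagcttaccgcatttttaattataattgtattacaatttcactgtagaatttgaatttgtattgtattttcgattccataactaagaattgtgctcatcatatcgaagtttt
DIP-alpha: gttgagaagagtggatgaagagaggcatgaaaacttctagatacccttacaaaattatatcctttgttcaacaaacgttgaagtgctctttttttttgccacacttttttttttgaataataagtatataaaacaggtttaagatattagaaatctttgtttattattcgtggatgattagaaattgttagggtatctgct
dpr14: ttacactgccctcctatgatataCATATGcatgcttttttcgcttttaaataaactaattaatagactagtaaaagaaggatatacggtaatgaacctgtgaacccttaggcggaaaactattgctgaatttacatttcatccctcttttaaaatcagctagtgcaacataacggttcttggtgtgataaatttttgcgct
side-IV: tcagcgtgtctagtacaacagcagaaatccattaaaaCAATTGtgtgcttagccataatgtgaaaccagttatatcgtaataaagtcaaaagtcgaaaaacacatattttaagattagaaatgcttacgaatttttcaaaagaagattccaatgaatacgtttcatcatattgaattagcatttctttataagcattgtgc

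beat-Ib (FBgn0028645), a Beat family gene of 57302 bp on the minus strand of 2L, held 4 of the 13 regions, close to its 3' end. The highest of them, region a at 15911112 to 15911437, ranked 129, 188 and 312 in replicates 1, 2 and 3, with signals of 243, 275 and 192. Its pooled rank of 184 was the best of any member. It lay in intron 2 of 6, which spans 31.1 kb, and 51.2 kb downstream of the gene's own start. The nearest start of a protein-coding gene was that of CG13244, 5604 bp away, and the start of the noncoding RNA gene lncRNA:CR44867 was 407 bp away. Region b (15912936 to 15913365) ranked 595, 576 and 502, and region c (15912137 to 15912266) ranked 1038, 543 and 854. These 3 regions were among the highest 3612 of every replicate. Region d (15908535 to 15908964) ranked 5765, 1323 and 1641, so replicate 1 stood apart, and its −log10 q-value there was 1.03. The 4 summits spanned 4.4 kb of the same intron, with gaps of 885, 982 and 2534 bp between neighbours. The summit of region c was 389 bp from the start of lncRNA:CR44868, and that of region b was 593 bp from it. The pooled list held 12 regions in the territory of beat-Ib, of which 6 had a q-value under 5%.

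DIP-alpha (FBgn0052791), whose product binds Dpr6 and Dpr10, held a single thresholded region, on X at 3546224 to 3546368. It ranked 859, 780 and 1116 in replicates 1, 2 and 3, a mean of 918 ± 176 (SD, n = 3), and its signals were 107, 153 and 102. The summit lay in intron 2 of 10, which spans 26.3 kb, 25.3 kb from the gene's 5' end and 15661 bp upstream of its other annotated start. The nearest start of any protein-coding gene was that of ppk8, at 11486 bp, and the start of lncRNA:CR34335 was 216 bp away. DIP-eta was the other DIP gene with a region, on 2L at 5610062 to 5610491 in intron 5 of 11. That region ranked 3987, 4202 and 2524, which put it among the highest 3612 in replicate 3 alone.

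The 3 Dpr genes with a thresholded region, dpr14, dpr19 and dpr20, were short genes with the summit just upstream of them. The dpr14 region, on X at 7908489 to 7908918, ranked 1025, 1530 and 1020, with signals of 97.6, 104 and 108. Its summit was 418 bp upstream of dpr14 and 227 bp from the start of spidey, which runs in the opposite direction, so the region cannot be given to either gene alone. The dpr19 region, on 2L at 10375779 to 10376208, ranked 1930, 2727 and 2855, and its summit lay 174 bp upstream of the gene's start, within the territory of CG33303 as well. The dpr20 region, on 3L at 857548 to 857977, ranked 6487, 2996 and 3630. Its summit was 515 bp upstream of the dpr20 start and 291 bp from an annotated transposable element. The dpr14 and dpr19 regions were among the highest of all 3 replicates, while that of dpr20 was among the highest of replicate 2 alone.

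Among the Side genes, side-IV and side-V held the thresholded regions, and the side gene itself held none. Side-IV binds Beat-IIb. Its region, on 3R at 13452774 to 13453203, ranked 1617, 1877 and 1062, with signals of 74.9, 92 and 105. The summit lay in intron 2 of 16, 2399 bp downstream of the side-IV start. side-V held 3 regions on 2R, with summits at 23176781 (a), 23181024 (b) and 23196434 (c), over 19.7 kb of its introns 1 and 2. Region a ranked 2744, 1574 and 1942 and was among the highest 3612 of every replicate. Region b ranked 2797, 3688 and 3226, and region c ranked 5833, 4108 and 3095. Region b thus missed the highest 3612 in replicate 2, and region c in replicates 1 and 2.

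**Figure D1:**
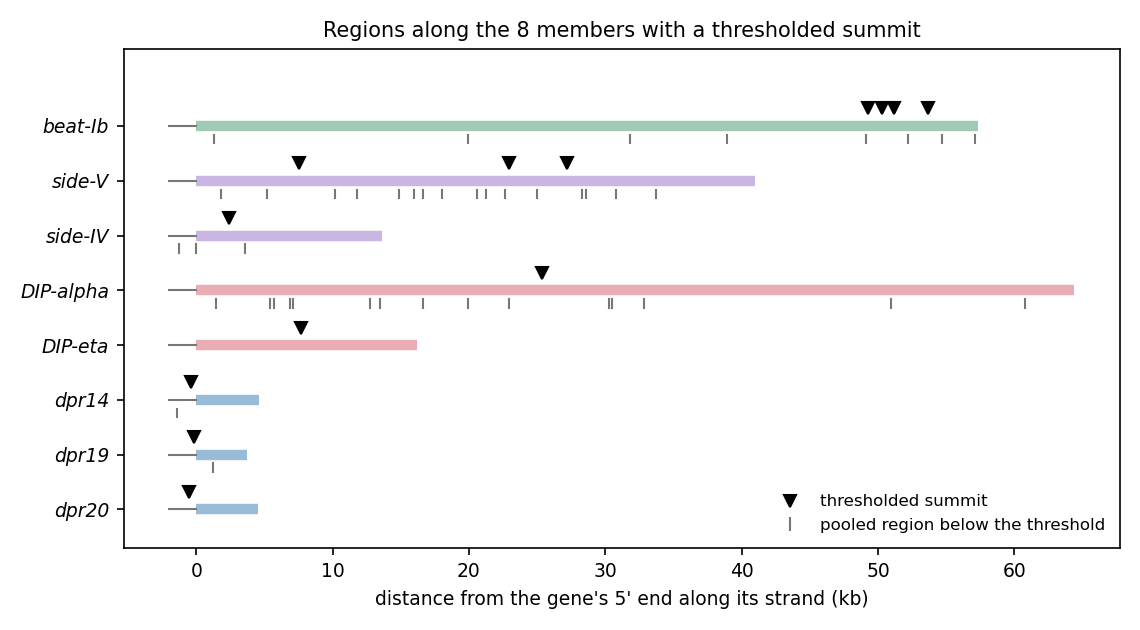
Position of regions along the 8 members with a thresholded summit, with the distance from each gene's 5' end along its own strand in kb on the x axis. Coloured bars are gene bodies (green Beat, purple Side, red DIP, blue Dpr), thin grey lines are the 2 kb upstream, triangles are thresholded summits and grey ticks are pooled regions below the threshold. The 4 beat-Ib summits stand within 4.4 kb of each other near the gene's 3' end, and those of the 3 Dpr genes stand upstream of the gene body.

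**Figure D2:**
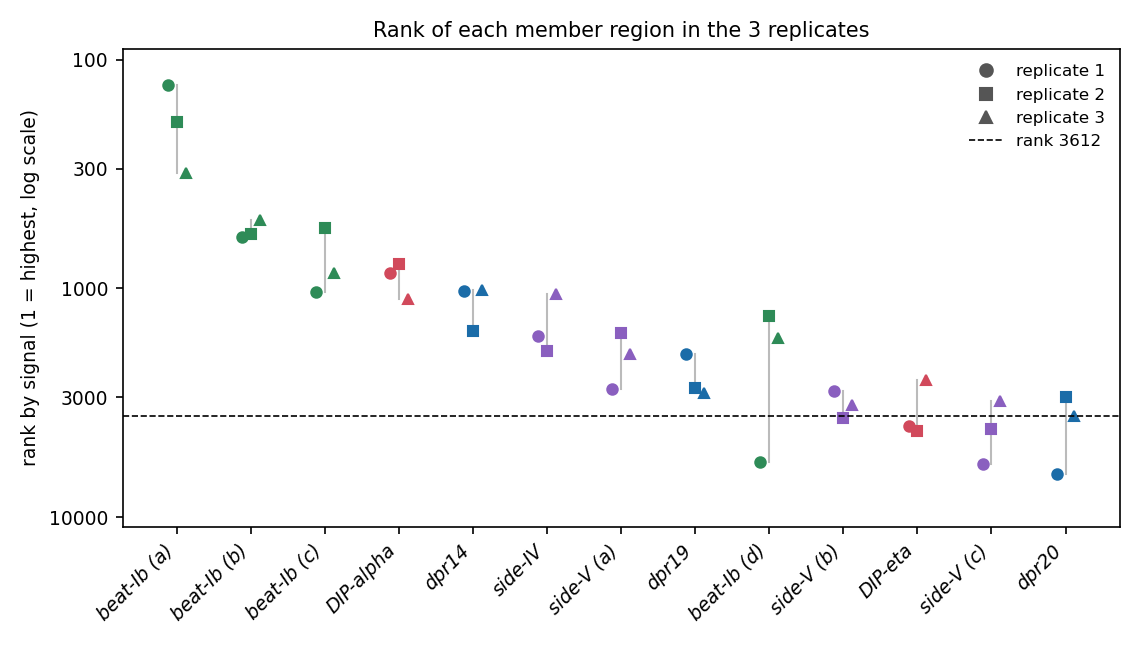
Rank by signal of the 13 member regions in each of the 3 replicates, on a log axis with the highest signal at the top. Circles, squares and triangles are replicates 1, 2 and 3, grey lines join them, colours give the family (green Beat, red DIP, blue Dpr, purple Side), letters order the regions of 1 gene by mean rank, and the dashed line is rank 3612. The beat-Ib (a) points lie between ranks 129 and 312, and beat-Ib (d), DIP-eta, side-V (b), side-V (c) and dpr20 have points on both sides of the line.

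Thresholded summits were present in the territories of 3 of 21 Dpr, 2 of 11 DIP, 1 of 14 Beat and 2 of 8 Side genes. Over all 4 families this was 8 of 54 members, or 14.8% (95% Wilson interval 7.7 to 26.6), while 20.5% of all protein-coding genes, the members included, had one. That comparison depends on the definition of the territory: with gene bodies alone, 5 members or 9.26% had a summit, beside 9.24% of all genes. No test of the families against other genes was run, and the intervals cover counting error only, with genes that lie side by side counted singly.

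The members are long genes, and the share of genes with a summit was higher in longer classes over all genes. Their territories had a median of 38.2 kb (range 5.74 to 381 kb), against 4.17 kb over all genes, and 41 of the 54 reached 20 kb. Among members of 20 kb or more, 3 of 41 (7.32%, interval 2.52 to 19.4) had a thresholded summit: beat-Ib, side-V and DIP-alpha. Among all genes of that length, 51.2% had one. In the class from 20 to 50 kb the member was side-V, 1 of 24 (4.17%, interval 0.739 to 20.2), beside 48.5% of all genes. In the class over 50 kb, beat-Ib and DIP-alpha made 2 of 17 (11.8%, interval 3.29 to 34.3), beside 57.7% of all genes. From 5 to 20 kb the members with a summit were dpr14, dpr19, dpr20, DIP-eta and side-IV, 5 of 13 (38.5%, interval 17.7 to 64.5), beside 27.8% of all genes, which lies inside the interval. No member had a territory under 5 kb, a class in which 12.9% of genes had a summit. With gene bodies alone, the 3 of 41 long members stood beside 45.7% of all long genes.

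**Figure D3:**
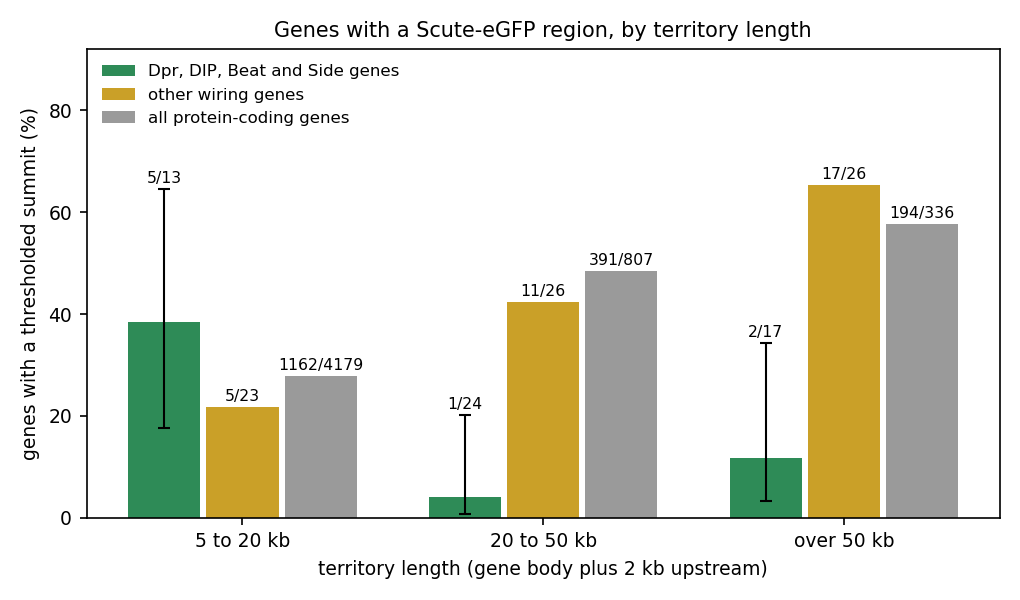
Share of genes with a thresholded summit in their territory (y axis, percent), by territory length in kb (x axis), for the Dpr, DIP, Beat and Side genes (green), other wiring genes (yellow) and all protein-coding genes (grey). Numbers above bars are genes with a summit over genes in the class, and error bars, drawn for the green bars alone, are 95% Wilson intervals. The green bars read 38.5%, 4.17% and 11.8% from the shortest to the longest class, and the grey bars 27.8%, 48.5% and 57.7%.

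The same lists were read as a density, in summits per Mb of territory. The members' 2.63 Mb held 4.94 thresholded summits per Mb (exact 95% Poisson interval 2.63 to 8.45), against 30.8 per Mb over the territories of all genes (29.7 to 31.9) and 27 per Mb over the 6 arms. The pooled list of 30000 regions also includes regions below the threshold that the authors deposited as background. It held 269 regions in member territories, or 102 per Mb (90.4 to 115), against 233 per Mb over all genes. For territories of 20 kb or more, the thresholded density was 3.2 per Mb in members and 25.5 per Mb in all genes, and the pooled density was 98.5 per Mb in members and 229 per Mb in all genes. Members therefore held fewer listed regions per Mb in both lists, the list with background regions included. How well reads map in these territories and their coverage in input were not tested. DIP-lambda, dpr6, dpr8 and dpr21 each had territories over 100 kb and no thresholded summit. Without them the densities in members were 7.17 thresholded and 129 pooled regions per Mb.

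Each replicate alone gave a similar count. Taking the highest 3612 regions of each replicate list, 6, 7 and 7 members had a summit in replicates 1, 2 and 3, a mean of 12.3% ± 1.07 of the members, against 20.8% ± 0.705 of all genes (SD, n = 3). The shares of all genes were 21.6%, 20.8% and 20.2%. beat-Ib, DIP-alpha, dpr14, dpr19, side-IV and side-V were among these in every replicate, dpr20 in replicate 2 alone and DIP-eta in replicate 3 alone. Region by region, 8 of the 13 member regions (61.5%, interval 35.5 to 82.3) were among the highest of all 3 replicates, beside 62.5% of all thresholded regions. Another 2 were among the highest of 2 replicates and 3 of a single replicate.

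Most member summits lay in introns, as in other long genes. Introns held 10 of 13 (76.9%, interval 49.7 to 91.8), beside 78.4% of the 88 summits in the territories of 76 other wiring genes (guidance and recognition genes chosen by name), 72.3% of those in all genes of 20 kb or more and 40.3% of all thresholded summits. The last share includes summits outside any territory and in short genes. All 10 were over 2 kb from any protein-coding start, as were 62 of the 69 intronic summits of other wiring genes. In all genes of 20 kb or more, 758 of 1022 intronic summits were. As shares of all summits, intronic or not, these were 76.9% in members, 70.5% in other wiring genes and 53.6% in all genes of 20 kb or more. Of the 10 intronic member summits, 8 were in intron 2, at beat-Ib (4 of them), DIP-alpha, side-IV and side-V. That intron spans 31.1 kb in beat-Ib, 26.3 kb in DIP-alpha, 3.34 kb in side-IV and 14.8 kb in side-V. The share of intron 2 among summits of other genes is not given here, so no trait of the members is read from this count. Promoters, taken as within 500 bp of a start, held 2 of 13 (15.4%, interval 4.33 to 42.2), at dpr14 and dpr19. Both of these members have territories under 20 kb. Promoters held 13.6% of the summits of other wiring genes and 22.6% of those in all genes of 20 kb or more. In members of 20 kb or more, promoters held 0 of 8 summits (interval up to 32.4%) and introns 8 of 8 (interval 67.6 to 100). Counted by gene, 2 of 54 members (3.7%, interval 1.02 to 12.5) had a summit within 500 bp of their own start. The share of all genes was 12.4%, which lies just inside the interval. The median distance to the nearest start was 4719 bp for member summits (174 to 11486) and 1202 bp for all thresholded summits. The nearest start belonged to the member at 5 summits and to another gene at 8, among them all 4 of beat-Ib and that of DIP-alpha. Starts of noncoding RNA genes lay within 500 bp of 3 member summits (23.1%, interval 8.18 to 50.3), namely beat-Ib (a), beat-Ib (c) and DIP-alpha, beside 4.76% of all thresholded summits. The 4 beat-Ib and the 3 side-V summits share a gene, so these shares rest on 8 genes and not on 13 independent places.

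In signal the member regions were ordinary for the set. Their pooled signal had a median of 249 (146 to 714), beside 232 over all thresholded regions, and their median pooled rank was 1605, beside 1806. The GC content of the 201-base windows had a median of 30.3% (20.4 to 51.7), beside 34.3% over all thresholded windows. Motifs were sought on both strands of these windows. The heptamers GCAGCTG or GCAGGTG, which match the known site of achaete-scute proteins with Daughterless, were found in 0 of 13 windows (interval up to 22.8%), beside 4.62% of all thresholded windows. CAGCTG, which GCAGCTG contains, was also found in 0 of 13, beside 7.86%. CATATG, a form of CANNTG, was found in 2 (15.4%), beat-Ib (b) and dpr14, beside 8.44%. Any CANNTG was found in 6 of 13 (46.2%), beside 60.1%. AGATAA was found at dpr19 alone (7.69%), beside 15.4%. GAGAGAG was found in 0 of 13, beside 3.57%. A match describes the letters of the window and does not mark a bound site.

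The other 46 members had no thresholded summit, and their highest regions lay further down the lists. With a q-value under 5% in the pooled list as the criterion, 11 of 54 members (20.4%, interval 11.8 to 32.9) had a region, beside 29.6% of all genes, which adds beat-Ic, dpr1 and side to the 8 above. The beat-Ic region ranked 5468, 6251 and 4861 in replicates 1, 2 and 3. It lay in a 3' UTR, 1527 bp from the nearest start, which was that of BicC and CG45084 and not of beat-Ic. The region of dpr1, the founding dpr gene, known for the response to salt, lay 1830 bp upstream of its start and ranked 4405, 9698 and 7010. The side region lay in an intron, 24176 bp from the nearest start, and ranked 11055, 4399 and 12109. Replicate 1 gave the best rank of dpr1 and replicate 2 that of side, with the other 2 replicates well below, whereas the beat-Ic ranks stood closer together. Of the 46 members, 9 (19.6%, interval 10.7 to 33.2) had a region with a q-value under 5% in at least 1 replicate, beside 21.1% of all genes without a thresholded summit. In all 3 replicates 0 of 46 had one (interval up to 7.71%), beside 2.35% of those genes. The shares by q-value are not matched for length, and member territories are longer (median 38.2 kb, against 4.17 kb over all genes). The next members by pooled rank were beat-Ia (6727), beat-IIIc (6869), beat-Vc (7081), DIP-epsilon (7163) and beat-IIa (7856), none with a pooled q-value under 5%.

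By family, the median of the best pooled rank was 14464 over 18 Dpr genes, 14164 over 10 DIP genes, 9922 over 14 Beat genes and 10776 over 8 Side genes. The ranges overlapped, from 1196 to 24294 for Dpr, 854 to 27447 for DIP, 184 to 29632 for Beat and 1299 to 19355 for Side. dpr5, dpr15, dpr17 and DIP-zeta had no pooled region, though each had a region in at least 1 replicate list. Over all 4 families, 19 members (35.2%, interval 23.8 to 48.5) had a best pooled rank up to 10000, beside 36.9% of all genes. For territories of 20 kb or more this was 14 of 41 members (34.1%, interval 21.6 to 49.5), beside 75.8% of all genes of that length. In that length class the median best pooled rank was 12054 in the 39 of 41 members that had a region, against 3296 in 1118 of 1143 genes of that length.

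The best pooled ranks of known partners are given side by side, as a description of too few pairs to compare with other genes. DIP-alpha had a best pooled rank of 854, while its partners dpr6 and dpr10 had 10172 and 9753, and neither had a thresholded summit. The best dpr6 region lay 44 bp from the start of CG42455 and vnc rather than at the dpr6 start. side-IV stood at 1299, while beat-IIb stood at 8199. Neither gene of the pair beat-Ia (6727) and side (6053) had a thresholded summit. The best beat-Ia region was at its promoter, 218 bp from the start, and ranked 17771, 6707 and 7591. DIP-gamma (16535) and dpr11 (22260) were both far down the pooled list.

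**Figure D4:**
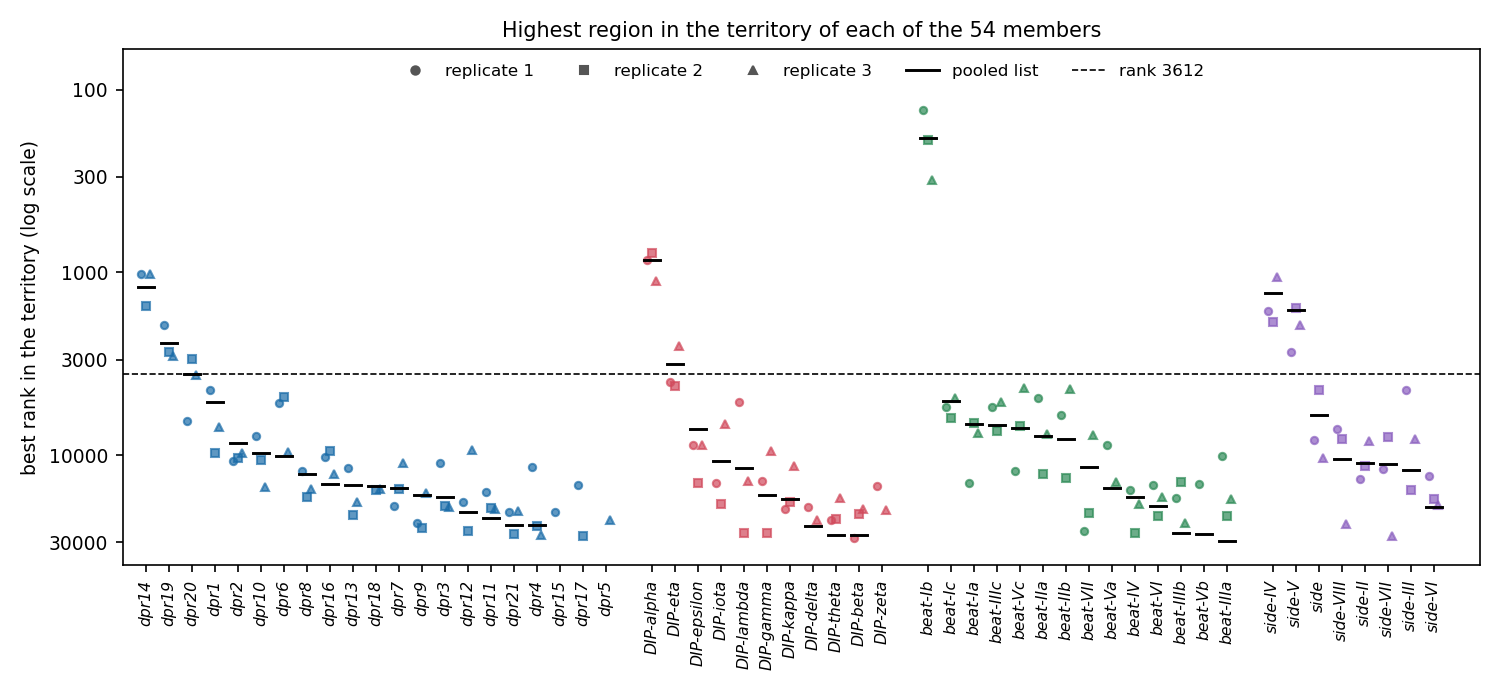
Best rank of any region in the territory of each of the 54 members (y axis, log scale, highest signal at the top), in families from left to right: Dpr (blue), DIP (red), Beat (green) and Side (purple). Circles, squares and triangles are replicates 1, 2 and 3, black bars are the pooled list, the dashed line is rank 3612, and a missing mark means no region in that list. beat-Ib stands highest, and 8 members have a pooled bar on or above the dashed line.

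Other genes of neuronal wiring were set beside the members from a list of 76 guidance and recognition genes chosen by name, whose median territory of 36.2 kb was close to the 38.2 kb of the members. Like the members, this list was chosen with earlier results of these data known. Among members 8 of 54 (14.8%) had a thresholded summit, against 34 of 76 other wiring genes (44.7%, interval 34.1 to 55.9). From 20 to 50 kb the counts were 1 of 24 members and 11 of 26 other wiring genes, and over 50 kb they were 2 of 17 members and 17 of 26 other wiring genes. From 5 to 20 kb the order was the other way round, with 5 of 13 members and 5 of 23 other wiring genes. The density was 4.94 thresholded summits per Mb (2.63 to 8.45) in members and 22.7 per Mb (18.2 to 28) in the other wiring genes. These Poisson intervals treat summits as independent and are too narrow where summits cluster. Of the 13 member summits, 4 lay in beat-Ib, and of the 88 in other wiring genes, 11 lay in kirre. In the replicates, members held 3.42, 4.18 and 4.94 of the highest regions per Mb, and other wiring genes 24.5, 23.5 and 22.9. The best-ranked of the other wiring genes was Toll-7, a leucine-rich repeat receptor, with ranks of 195, 89 and 105 in replicates 1, 2 and 3. It was followed by Fili (321, 374 and 307), kirre, an adhesion protein of myoblasts and neurons (167, 434 and 408), babos (257, 370 and 430) and fra, the Netrin receptor (228, 638 and 444). The ranks of beat-Ib (a) in the same order were 129, 188 and 312. No test of members against the other wiring genes was run.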

How the data were processed

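Scute-eGFP was mapped by ChIP-seq in a single group of 3 biological replicates. The deposited dm6 lists were used: 1 per replicate, 1 from pooled replicates, and the set thresholded by irreproducible discovery rate, per the labels. Per the labels' text, the replicate and pooled lists contain peaks and background. The signal of each region was used as the authors deposited it, on the scale of its own list. The −log10 q-value was likewise as deposited, read as in narrowPeak files, and each summit offset was taken as deposited. Peak caller and aligner: not given in the sources used here. Depth cannot be given, since the lists hold no read counts. The dm3 lists were not used here, and 0 columns of other samples were present.

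Members and lists were chosen with earlier results of these data known. Gene models were Ensembl release 115 on the Release 6 genome, which supplied the sequences (RefSeq). Regions of a replicate were assigned to their nearest thresholded summit within 250 bp, keeping the highest signal. Mean ± SD over 3 replicates, 95% Wilson and exact Poisson intervals and shares were computed, with no test, since there was a single group. Every member with a thresholded summit is named, as are those with a pooled q-value under 5%, the next 5 by pooled rank, known partners, and the 5 best other wiring genes. The partner pairs and the members without a pooled region were added to this rule after their values were seen. Sequences are from the 6 member regions with the best mean rank that are not on 2R. Alternatives covered the territory, the assignment by nearest start, the matching distance, the promoter and window widths, the threshold and each replicate left out. The overlap and matching steps were tested on made-up summits with known answers. The tools were Python 3.11.15, numpy 2.4.6, scipy 1.17.1 and matplotlib 3.10.9.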

Additional observations from a re-analysis of the deposited data

How the results depend on the processing

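Of 58 alternative values, 10 moved, meaning a count by over 1.5 times, or a share or density outside its 95% interval. Those intervals are wide: the density of 4.94 summits per Mb took values from 2.66 (the 50% of highest signal) to 7.99 (pooled q-values under 5%), and the promoter share of 15.4% reached 25%, all inside them. Members with a thresholded summit numbered 8 as reported, and 5 with gene bodies alone or with the 50% of regions of highest signal. Each count of 5 was 9.26% of members, beside 9.24% of all genes with gene bodies alone and 12.8% with the 50% of highest signal. Thresholded summits in member territories numbered 13 as reported, 20 with 5 kb on both sides, 7 with the 50% of highest signal, 21 with pooled q-values under 5%, and 8 by nearest start. The thresholded set cannot be rebuilt without a replicate, so leaving a replicate out kept thresholded regions among the highest 3612 of both others. That gave 8 to 9 summits and 6 members each time (11.1%, beside 16.1% to 16.3% of all genes). The same criterion with all 3 replicates, added after seeing the data, gave 8 summits in 6 members (beside 14.9% of all genes). Its regions are by definition a subset of those kept with a replicate left out, so its counts could not be higher. The effect of losing a library was not tested. The promoter share was 15.4% as reported and 0 with gene bodies alone, which drop the sequence upstream of dpr14 and dpr19. Regions among the highest of all 3 replicates numbered 8 as reported and 4 by nearest start. Among members of 20 kb or more, 3 of 41 (7.32%) had a summit under gene bodies alone, the 50% of highest signal, and each replicate left out. The shares of all such genes were 45.7%, 34.7% and 43.5% to 44% under these settings. With 5 kb on both sides the count was 5 (12.2%, beside 59.2% of all such genes). Leaving out members over 100 kb, and counting any highest region within 250 bp, were added after seeing the data. The any-region count was again 8 for members, beside 66.7% of all thresholded regions. No paired analysis was possible because the 3 replicates form a single group. Depth limits cannot be given, since read counts are unknown.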

Other observations

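Regions just outside the territories were counted with 5 kb on both sides of the gene body. This gave 11 members with a thresholded summit, the 8 reported and DIP-delta, DIP-iota and side with 1 each, and the count in side-IV was 3, beside 1 within its territory. For dpr19 and dpr20 the counts were 2 each, beside 1 each. Within 5 kb, 20.4% of members had a summit, against 36.2% of all genes.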
